A study of Mus musculus with 12 samples.

Results

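The murine Fc gamma receptors, which bind the constant part of IgG antibodies, were followed with the signalling chain and the IgG transport receptor usually described beside them. These are the genes Fcgr1, Fcgr3 and Fcgr4 (activating receptors), Fcer1g (their shared signalling chain), Fcgr2b (the inhibitory receptor) and Fcgrt (the transport receptor). They were taken from the count table by gene symbol, which gave 6 of its 24391 genes, and all 6 passed the low-count filter that left 13221 genes for testing. RNA was sequenced from 12 libraries labelled as CD11b dendritic cells (DCs), and the series title places the work in mice with established lung fibrosis. All mice were wild-type C57BL/6J, aged 8 to 12 weeks, and all were given a replication-deficient adenovirus by intratracheal aspiration under xylazine and ketamine. The virus of the control group, AdCL, carried no inserted gene, and that of the other group, AdTGFb1, carried a porcine gene for biologically active TGF-β1. The titles put 3 libraries of each vector in experiment 1 (AdCL DC 7, 8 and 9; AdTGFb1 DC 14, 52 and 54) and 3 in experiment 3 (AdCL DC 943, 944 and 949; AdTGFb1 DC 954, 955 and 956). No source used here states the time after the vector, the organ, the sorting gate or whether libraries share an animal, so p-values measure the spread between these libraries.

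Activating Fc gamma receptors bind IgG in immune complexes and signal through the immunoreceptor tyrosine-based activation motif of the Fcer1g chain, which Src-family kinases phosphorylate and the kinase Syk then binds. Fcgr2b carries an inhibitory motif in its own tail, recruits the lipid phosphatase SHIP1 and dampens the same signal, so the balance of both kinds sets how a DC responds to immune complexes. Fcgr1 binds monomeric IgG with high affinity and is used as a marker that tells monocyte-derived cells and macrophages from conventional DCs. Fcgrt, the neonatal Fc receptor, pairs with beta-2-microglobulin in acidic endosomes, where it rescues IgG from degradation and takes part in antigen presentation.

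The libraries held 10099912 to 15594546 counts, of which the 6 genes took 0.0478% to 0.142%. Same-group libraries correlated at 0.896 to 0.942 (Pearson, log2 CPM). By Xist and Ddx3y, AdCL DC 7, 8 and 9 and AdTGFb1 DC 14 were from males and the other 8 libraries from females, so within experiment 1 sex moved with the vector, while all of experiment 3 was female. The DC genes Zbtb46 and Flt3 were detected in every group, with lower means in AdTGFb1 than in AdCL in both experiments. Zbtb46 had group means of 151 (AdCL) and 47.0 CPM (AdTGFb1) in experiment 1, and of 134 and 44.8 CPM in experiment 3. For Flt3 they were 90.8 and 32.1 CPM in experiment 1, and 70.3 and 33.0 CPM in experiment 3. Of 13 CD11b DC markers, 10 were lower and 1, Sirpa, was higher with AdTGFb1 over both experiments. Of all tested genes 10.4% were called lower and 6.78% higher. The summed level of the 13 markers was 39643 to 52538 CPM in the AdCL libraries and 25157 to 42231 CPM in the AdTGFb1 libraries. Most of this sum came from Cd74 (group means from 12109 to 19658 CPM) and from H2-Aa, H2-Ab1 and H2-Eb1 (3140 to 8353 CPM). The sum therefore says little about the other markers of the list. Of 9 mast cell and basophil markers, 6 (Cpa3, Ms4a2, Fcer1a, Mcpt8, Mcpt4 and Tpsb2) were at 0 in all 12 libraries. The list summed to 165 to 276 CPM in AdCL and 45.0 to 70.8 CPM in AdTGFb1 of experiment 1, and to 131 to 171 and 94.4 to 115 CPM in experiment 3. Its 2 genes that were tested, Kit (a growth factor receptor; group means of 206 and 54.2 CPM in experiment 1 and 154 and 99.8 CPM in experiment 3, AdCL first) and Gata2, both fell in experiment 1, neither passed in experiment 3, and both passed the test of the difference between the experiments. The part of this list in the receptor results was not tested. The summed NK, B and T cell marker lists reached at most 18.6 CPM each in any library. These sums lack Ighm and Igkc of the 9 B cell markers listed and Trac of the 8 T cell markers, which were not among the counted genes. CPM are read counts scaled to library size with TMM factors.

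Promoter sequences are shown for the receptors whose transcripts differed most between the vectors and for Fcgr2b, the inhibitory receptor, beside which they are read. Each is the 250 bases before the transcription start from RefSeq (GRCm38.p6), written in the direction of transcription. They lie at chr3:96293970-96294219 (minus strand) for Fcgr1, chr1:171059404-171059653 (minus strand) for Fcgr3, chr1:171018676-171018925 (plus strand) for Fcgr4 and chr1:170976072-170976321 (minus strand) for Fcgr2b. Capitals mark matches to the motifs listed after the sequences.
Fcgr1: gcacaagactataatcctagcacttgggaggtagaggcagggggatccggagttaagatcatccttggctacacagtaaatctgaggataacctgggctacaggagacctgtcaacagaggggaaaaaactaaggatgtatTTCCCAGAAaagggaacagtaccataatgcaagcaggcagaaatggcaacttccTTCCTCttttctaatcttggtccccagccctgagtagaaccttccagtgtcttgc
Fcgr3: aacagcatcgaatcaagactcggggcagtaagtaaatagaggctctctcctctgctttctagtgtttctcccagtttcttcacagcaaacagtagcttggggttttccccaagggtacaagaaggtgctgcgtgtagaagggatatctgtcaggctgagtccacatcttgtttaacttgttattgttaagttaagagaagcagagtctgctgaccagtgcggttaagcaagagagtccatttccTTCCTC
Fcgr4: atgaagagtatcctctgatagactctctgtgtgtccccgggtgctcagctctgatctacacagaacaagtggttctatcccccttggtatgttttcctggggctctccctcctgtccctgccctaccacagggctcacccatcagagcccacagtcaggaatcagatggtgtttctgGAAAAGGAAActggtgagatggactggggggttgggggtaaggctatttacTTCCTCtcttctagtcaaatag
Fcgr2b: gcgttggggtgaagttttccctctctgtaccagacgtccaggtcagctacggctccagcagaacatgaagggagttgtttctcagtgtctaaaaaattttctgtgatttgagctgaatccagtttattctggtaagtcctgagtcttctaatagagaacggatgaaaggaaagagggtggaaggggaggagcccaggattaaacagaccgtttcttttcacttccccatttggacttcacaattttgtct
In these windows 5 motifs were searched on both strands, and no match overlapped another. Fcgr1 held TTCCCAGAA, a match to TTCNNNGAA, the core of gamma-activated sites, from 109 to 101 bases before the start; 7.18% of 27025 RefSeq promoters of this length hold that motif. TTCCTC, which is GAGGAA on the other strand and a core of sites for ETS factors such as PU.1, stood 55 to 50 bases before the start of Fcgr1, 6 to 1 bases before that of Fcgr3 and 22 to 17 bases before that of Fcgr4. The windows of 3 of the 6 genes held GAGGAA, against 23.1% of all promoters. Fcgr4 also held GAAAAGGAAA, a match on the other strand to TTTCNNTTTC of interferon-stimulated elements, 73 to 64 bases before the start, which 3.04% of promoters hold. TTCNNNNGAA, the spacing that STAT6 prefers, and CAGACA, a SMAD box, are held by 5.86% and 17.1% of promoters and were in none of the 6 windows. Fcgr2b, Fcer1g and Fcgrt had no match to any of the 5 motifs in this window.

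With AdTGFb1, transcripts of all 3 activating receptors and of their chain rose over both experiments, Fcgr1 by the largest factor among the 6 genes (3.20-fold). Fcgr2b was called higher over both experiments as well, and Fcgrt did not pass the test. Within the single experiments, only Fcgr1 and Fcgr3 passed in both. Fcgr2b and Fcer1g passed in experiment 1 and not in experiment 3, and Fcgr4 passed in experiment 3 and not in experiment 1. Of the 6 genes, 5 were called higher and 0 lower (edgeR quasi-likelihood test, Benjamini-Hochberg adjusted p under 0.05), against 17.2% of all tested genes called in either direction 6.78% called higher and 10.4% called lower. Their median log2 fold change was 0.90, beside -0.00 over all 13221 tested genes. In bulk RNA, fewer cells of a type and less RNA per cell cannot be told apart, and this holds for every level given here.

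**Figure D1:**
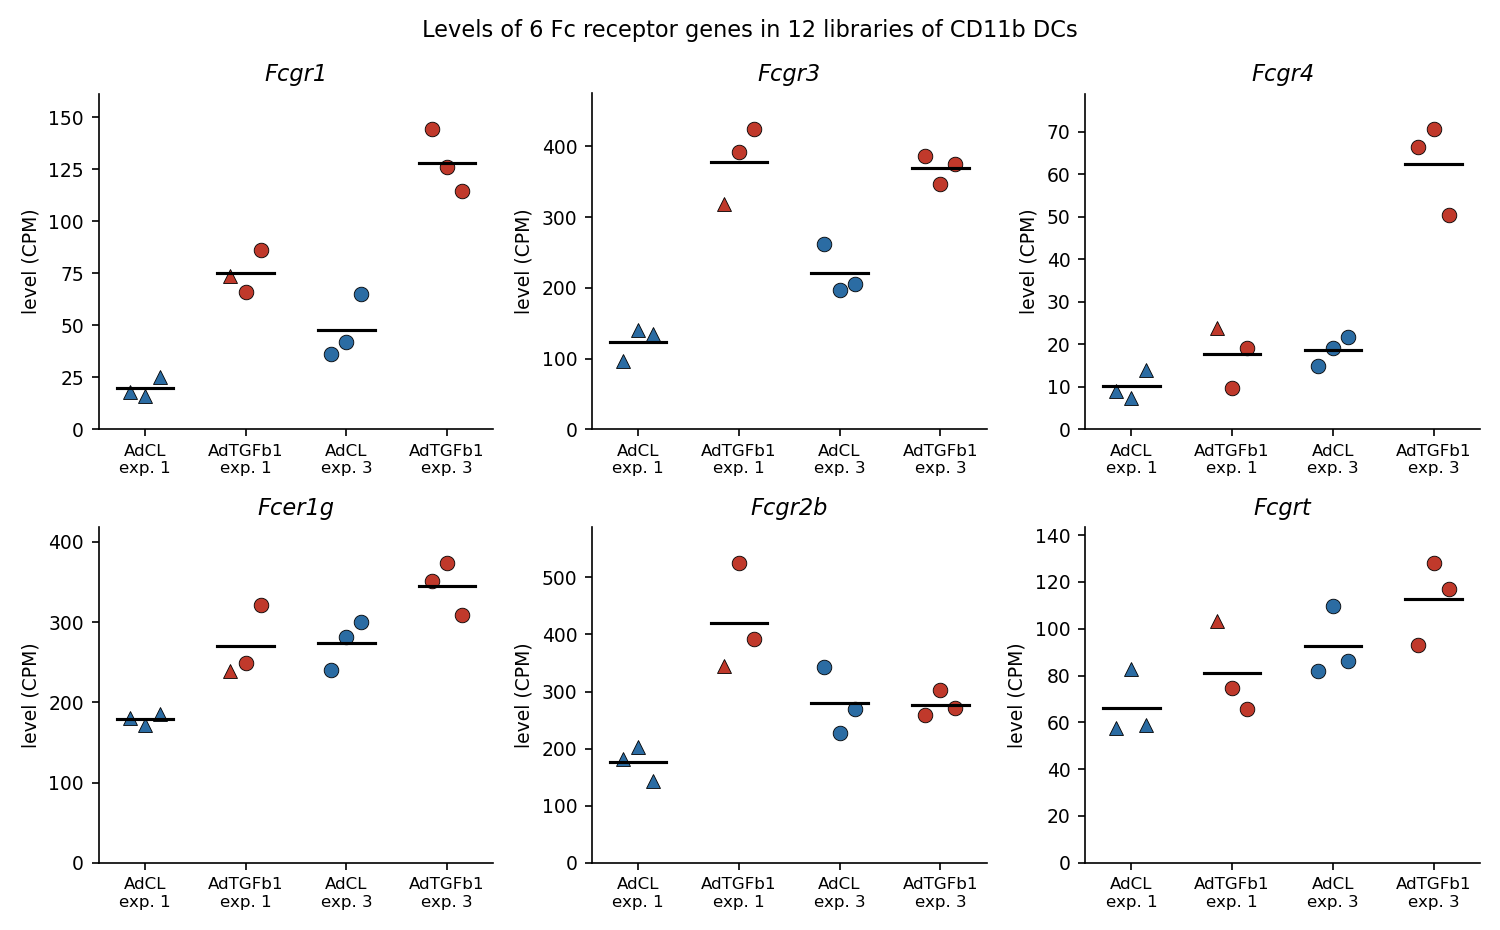
Level in CPM of the 6 genes in each of the 12 libraries, by vector and experiment; each point is a library (blue AdCL, red AdTGFb1; triangles male, circles female) and each bar the mean of 3. Every AdTGFb1 library lay above every AdCL library for Fcgr1 and Fcgr3, while for Fcgr2b the AdTGFb1 libraries of experiment 3 (258 to 302.98 CPM) lay within the range of the AdCL libraries of that experiment (227 to 343 CPM).

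Fcgr1, which encodes the high-affinity receptor CD64, stood at 17.9, 16.2 and 25.0 CPM in AdCL DC 7, 8 and 9 and at 73.9, 65.9 and 86.4 CPM in AdTGFb1 DC 14, 52 and 54. In experiment 3 it stood at 36.0, 41.8 and 65.0 CPM in AdCL DC 943, 944 and 949 and at 144, 126 and 114 CPM in AdTGFb1 DC 954, 955 and 956. All 6 AdTGFb1 libraries lay above all 6 AdCL libraries, though the highest AdCL library, DC 949, came within 1 CPM of AdTGFb1 DC 52. Such a complete separation upward held for 1.86% of tested genes. The log2 fold change was 1.68 ± 0.18 (SE) over both experiments (adjusted p = 4.5e-06), 1.93 ± 0.23 in experiment 1 (adjusted p = 2.29e-06) and 1.43 ± 0.22 in experiment 3 (adjusted p = 0.000279). The difference between the experiments, -0.51 ± 0.31, did not pass (adjusted p = 0.379). The group means were ordered 19.7 ± 4.67 (AdCL, experiment 1), 47.6 ± 15.4 (AdCL, experiment 3), 75.4 ± 10.3 (AdTGFb1, experiment 1) and 128 ± 15 CPM (AdTGFb1, experiment 3; SD, n = 3 each), and no neighbouring groups overlapped.

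Fcgr3, which encodes the low-affinity activating receptor CD16, had 96.1, 140.2 and 135 CPM in AdCL DC 7, 8 and 9 and 319, 392.2 and 424 CPM in AdTGFb1 DC 14, 52 and 54. Its levels in experiment 3 were 261, 198 and 205 CPM in AdCL DC 943, 944 and 949 and 387, 346 and 375 CPM in AdTGFb1 DC 954, 955 and 956. Here too every AdTGFb1 library exceeded every AdCL library, and the AdTGFb1 means of both experiments were close, at 378 ± 53.9 and 369 ± 20.8 CPM, while the AdCL mean was 124 ± 24.1 CPM in experiment 1 and 221 ± 34.9 CPM in experiment 3. Fcgr3 rose by 1.17 ± 0.16 on the log2 scale over both experiments (adjusted p = 6.2e-05), by 1.61 ± 0.16 in experiment 1 (adjusted p = 3.54e-07) and by 0.74 ± 0.16 in experiment 3 (adjusted p = 0.00593). The effect was smaller in experiment 3 by -0.87 ± 0.23 (adjusted p = 0.0237 for the difference). That difference no longer passed without AdCL DC 7 (-0.76, adjusted p = 0.0528), AdTGFb1 DC 52 (-0.85, 0.0506), AdTGFb1 DC 54 (-0.79, 0.0703) or AdCL DC 943 (-0.74, 0.06). Fcgr3 and Fcgr2b share 166 stretches of 50 bases in their annotated transcripts, 9.58% of those of Fcgr3 and 2.92% of those of Fcgr2b, and no source used here states how reads from these were assigned.

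Fcgr4, a receptor for IgG2 subclasses of the mouse, was the least abundant of the 6 genes in counts, with 73 to 951 counts per library. Its levels were 9.10, 7.26 and 13.9 CPM in AdCL DC 7, 8 and 9 and 23.9, 9.81 and 19.3 CPM in AdTGFb1 DC 14, 52 and 54, so AdTGFb1 DC 52 lay inside the control range. In experiment 3 they were 14.9, 19.2 and 21.6 CPM in AdCL DC 943, 944 and 949 and 66.4, 70.6 and 50.4 CPM in AdTGFb1 DC 954, 955 and 956, with no overlap. The 3 AdTGFb1 libraries of experiment 3 stood apart from the other 9 libraries, which ran from 7.26 to 23.9 CPM. The log2 fold change was 1.29 ± 0.26 over both experiments (adjusted p = 0.00206) and 1.75 ± 0.32 in experiment 3 (adjusted p = 0.00139). In experiment 1 it was 0.80 ± 0.32 and did not pass (adjusted p = 0.074), but it passed without AdCL DC 9 (1.15, adjusted p = 0.0239), without AdTGFb1 DC 52 (1.10, adjusted p = 0.0171) and with no low-count filter (0.81, adjusted p = 0.0453). The other 10 fits that left out 1 library did not pass, and without AdTGFb1 DC 14 the difference was 0.53 (adjusted p = 0.305). The difference between the experiments, 0.94 ± 0.45, did not pass (adjusted p = 0.24).

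Fcer1g, the Fc receptor gamma chain on which the activating receptors depend for signalling and surface display, changed less than these receptors over both experiments. It had 180.0, 172 and 186 CPM in AdCL DC 7, 8 and 9 and 239, 249 and 321 CPM in AdTGFb1 DC 14, 52 and 54. In experiment 3 it had 239.6, 281 and 299.8 CPM in AdCL DC 943, 944 and 949 and 351, 374 and 308.6 CPM in AdTGFb1 DC 954, 955 and 956. Within each experiment every AdTGFb1 library lay above every AdCL library, but across experiments the AdCL libraries of experiment 3 overlapped the AdTGFb1 libraries of experiment 1, and their means were 273.5 ± 30.8 and 269.8 ± 44.7 CPM. The log2 fold change was 0.46 ± 0.11 over both experiments (adjusted p = 0.00757) and 0.59 ± 0.15 in experiment 1 (adjusted p = 0.00458; 0.0508 without AdTGFb1 DC 54, at 0.45). In experiment 3 it was 0.33 ± 0.15 (adjusted p = 0.214), and the difference between the experiments, -0.26 ± 0.21, did not pass (adjusted p = 0.518). Adding sex to the fit over both experiments ended this call (0.36, adjusted p = 0.0577), as did dropping the experiment from it (0.44, adjusted p = 0.0856).

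Fcgr2b, the inhibitory receptor CD32b, had 182, 203 and 144 CPM in AdCL DC 7, 8 and 9 and 345, 525 and 391.6 CPM in AdTGFb1 DC 14, 52 and 54, with no overlap. In experiment 3 it had 343, 227 and 269 CPM in AdCL DC 943, 944 and 949 and 258, 302.98 and 270.5 CPM in AdTGFb1 DC 954, 955 and 956, and the AdTGFb1 libraries lay inside the AdCL range. It rose by 1.25 ± 0.18 on the log2 scale in experiment 1 (adjusted p = 1.73e-05), a 2.39-fold difference. In experiment 3 the log2 fold change was -0.01 ± 0.17 (95% interval -0.36 to 0.33, adjusted p = 0.984). The experiments differed by -1.27 ± 0.25 (adjusted p = 0.00313), and this difference passed in all 12 fits that left out 1 library (-1.42 to -1.08). Over both experiments Fcgr2b rose by 0.62 ± 0.20 (adjusted p = 0.0416), a call that ended when sex was added to the fit (0.34, adjusted p = 0.252), when the experiment was dropped from it (0.61, 0.0541) and without any 1 of the 6 libraries of experiment 1 or AdCL DC 944 (0.48 to 0.64, adjusted p = 0.0577 to 0.106).

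Fcgrt, the transport receptor, had 57.6, 82.6 and 58.8 CPM in AdCL DC 7, 8 and 9 and 103, 74.6 and 65.8 CPM in AdTGFb1 DC 14, 52 and 54. In experiment 3 it had 82.1, 109 and 86.1 CPM in AdCL DC 943, 944 and 949 and 93.0, 128 and 117 CPM in AdTGFb1 DC 954, 955 and 956. The groups overlapped in both experiments. The log2 fold change was 0.29 ± 0.15 over both experiments (95% interval -0.00 to 0.58, adjusted p = 0.207), 0.29 ± 0.20 in experiment 1 and 0.28 ± 0.20 in experiment 3 (adjusted p = 0.316 and 0.509), so Fcgrt alone among the 6 genes was not called in any of these comparisons. Its value moved with single libraries, in experiment 1 from 0.09 without AdTGFb1 DC 14 to 0.51 without AdCL DC 8 (adjusted p = 0.819 and 0.104), and in experiment 3 from 0.18 without AdTGFb1 DC 955 to 0.44 without AdCL DC 944 (adjusted p = 0.767 and 0.376). Over both experiments it was 0.54 with a term for 42 markers of neutrophils, lymphocytes and structural cells in the fit (adjusted p = 0.242). B2m, whose protein is its partner chain, was at 1569 ± 244 CPM in the 6 AdCL libraries and 1871 ± 410 CPM in the 6 AdTGFb1 libraries and did not pass either (log2 fold change 0.25 ± 0.12, adjusted p = 0.171).

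**Figure D2:**
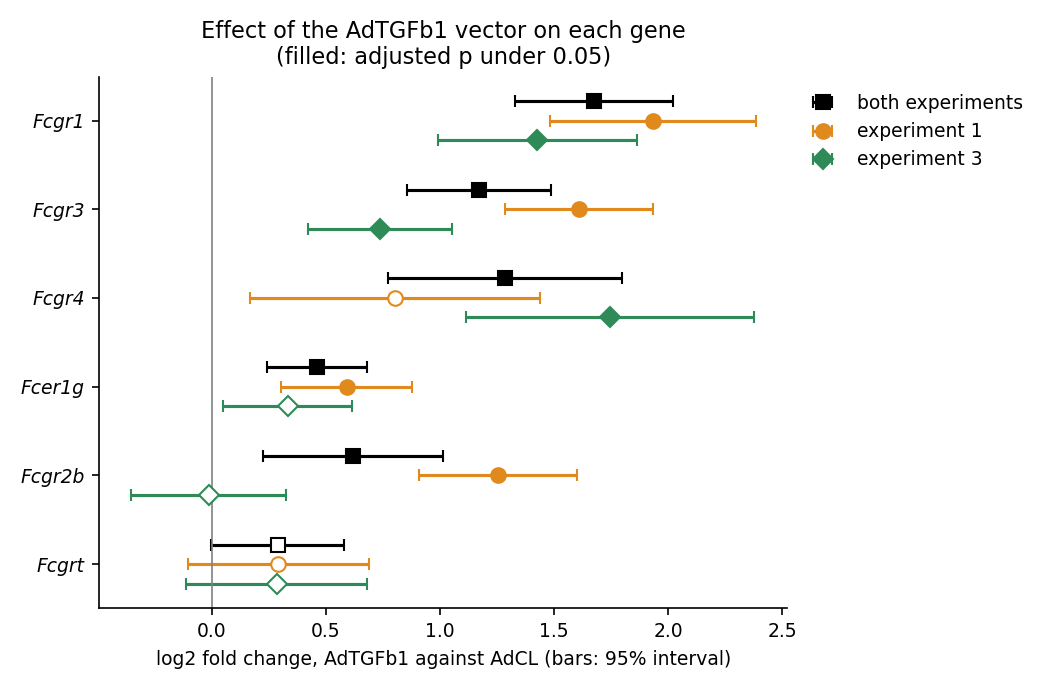
Log2 fold change of AdTGFb1 against AdCL for each gene, over both experiments (black squares), in experiment 1 (orange circles) and in experiment 3 (green diamonds); bars are 95% intervals and filled symbols passed an adjusted p of 0.05. Fcgr2b stands at 1.25 in experiment 1 and -0.01 in experiment 3, while Fcgr4 has the larger estimate in experiment 3 (1.75 against 0.80).

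Within experiment 1, 4 of the 6 genes rose (Fcgr1, Fcgr3, Fcgr2b and Fcer1g), where 24.7% of tested genes were called and 10.6% called higher. Within experiment 3, 3 of 6 rose (Fcgr1, Fcgr3 and Fcgr4), where 6.43% were called and 1.97% called higher. Each experiment had 4 of the 6 genes with all AdTGFb1 libraries above all AdCL libraries, against 18.8% of tested genes in experiment 1 and 11.5% in experiment 3. The vector's effect differed between the experiments for 2 of 6 genes, Fcgr2b and Fcgr3, both smaller in experiment 3. Of all tested genes 6.02% were called for this difference, 2.59% in that direction and 3.43% in the other.

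The same control vector gave different levels in the experiments. Among AdCL libraries, experiment 3 was higher than experiment 1 for 4 of the 6 genes, and 0 were lower, against 9.02% of tested genes called, 4.13% higher and 4.89% lower. These were Fcgr1 (log2 difference 1.27 ± 0.23, adjusted p = 0.00115), Fcgr3 (0.84 ± 0.16, 0.0023), Fcgr2b (0.67 ± 0.18, 0.0186) and Fcer1g (0.61 ± 0.15, 0.0101), while Fcgr4 (0.88 ± 0.33, 0.0938) and Fcgrt (0.48 ± 0.20, 0.146) did not pass. Fcgr2b lost this call without AdCL DC 9 (0.57, adjusted p = 0.0732) or AdCL DC 943 (0.50, 0.0999), and Fcgr4 gained it without AdCL DC 9 (1.21, 0.0393) or with no low-count filter (0.89, 0.0481). All AdCL libraries of experiment 1 were male and all of experiment 3 female, so sex and experiment cannot be told apart in this comparison.

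Among AdTGFb1 libraries, 3 of 6 genes differed between the experiments, 2 higher and 1 lower in experiment 3, against 7.81% of tested genes called, 4.61% higher and 3.2% lower. Fcgr4 was higher in experiment 3 by 1.82 ± 0.32 on the log2 scale (adjusted p = 0.001), a 3.53-fold difference, and it passed in every fit that left out 1 library (1.53 to 2.10). Fcgr1 was higher by 0.77 ± 0.22 (adjusted p = 0.0321), and this did not pass without AdTGFb1 DC 14 (0.75), DC 52 (0.68), DC 954 (0.67), DC 955 (0.78) or DC 956 (0.84), at adjusted p = 0.0563 to 0.146. Fcgr2b was lower in experiment 3 by -0.60 ± 0.17 (adjusted p = 0.035), and this did not pass without AdTGFb1 DC 52 (-0.41), DC 54 (-0.65), DC 954 (-0.55) or DC 956 (-0.58), at adjusted p = 0.0617 to 0.249. Fcgr3 (-0.03 ± 0.16), Fcer1g (0.35 ± 0.15) and Fcgrt (0.47 ± 0.20) did not pass.

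The activating receptors were set against Fcgr2b within each library, as the log2 ratio of their counts, which does not depend on how libraries are scaled. Each ratio compares levels of different genes without regard to length, so only its change between groups is read. Over both experiments the Fcgr1 to Fcgr2b and Fcgr3 to Fcgr2b ratios were higher with AdTGFb1, by 1.09 and 0.56 on the log2 scale. The exact two-sided permutation test over 400 assignments of vectors within experiments gave p = 0.01 and p = 0.015, or 0.03 for each when adjusted over the 4 ratios tested, and the smallest p it can give is 0.005. The Fcgr4 to Fcgr2b ratio differed by 0.63 (exact permutation p = 0.24, adjusted 0.32). It differed by 1.10 without AdTGFb1 DC 52 (exact permutation, adjusted p = 0.0533), and by 0.34 without AdTGFb1 DC 954 and 0.37 without AdTGFb1 DC 955 (adjusted p = 0.555 each, exact permutation). The Fcer1g to Fcgr2b ratio differed by -0.17 (exact permutation p = 0.52, adjusted 0.52).

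**Figure D3:**
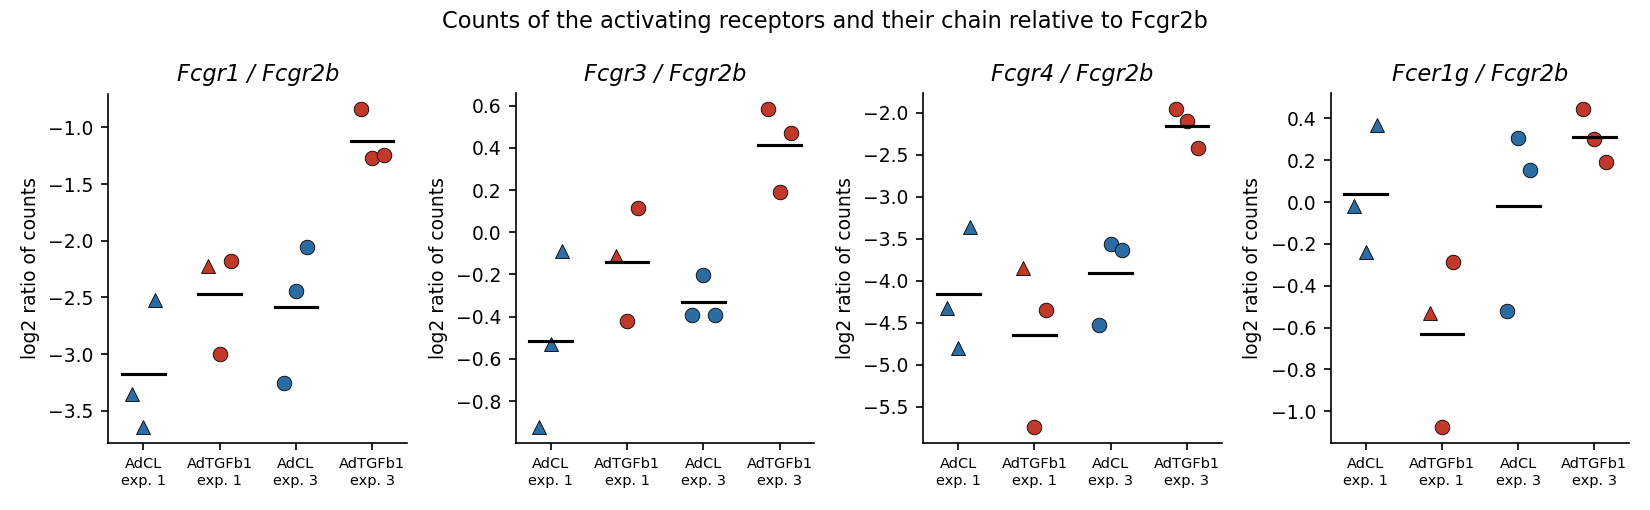
Log2 ratio of the counts of Fcgr1, Fcgr3, Fcgr4 and Fcer1g to those of Fcgr2b in each library, by vector and experiment; points are libraries (blue AdCL, red AdTGFb1; triangles male, circles female) and bars the means of 3. The AdTGFb1 libraries of experiment 3 have the highest ratios of Fcgr1, Fcgr3 and Fcgr4, and the AdTGFb1 libraries of experiment 1 overlap the AdCL libraries for these 3 ratios.

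By library, Fcgr3 counts were 0.528, 0.692 and 0.940 times those of Fcgr2b in AdCL DC 7, 8 and 9 and 0.925, 0.747 and 1.08 times in AdTGFb1 DC 14, 52 and 54. In experiment 3 they were 0.761, 0.869 and 0.762 times in AdCL DC 943, 944 and 949 and 1.5, 1.14 and 1.38 times in AdTGFb1 DC 954, 955 and 956. The vectors overlapped in experiment 1 and separated in experiment 3. For Fcgr1 the mean ratio was 0.117 ± 0.0497 (AdCL) and 0.187 ± 0.0533 (AdTGFb1) in experiment 1, and 0.177 ± 0.0686 and 0.466 ± 0.0803 in experiment 3 (SD, n = 3 each). For Fcgr4 it was 0.0609 ± 0.0320 and 0.0458 ± 0.0256 in experiment 1, and 0.0694 ± 0.0226 and 0.225 ± 0.0358 in experiment 3. Within experiment 1 the log2 differences were 0.71 (Fcgr1), 0.37 (Fcgr3), -0.48 (Fcgr4) and -0.67 (Fcer1g), and within experiment 3 they were 1.47, 0.74, 1.75 and 0.33. A permutation test of 3 against 3 cannot go below p = 0.1, the value reached by Fcgr1, Fcgr3 and Fcgr4 in experiment 3 and by Fcer1g in experiment 1, where the ratio was lower with AdTGFb1. Leaving out AdCL DC 7 or DC 8 or AdTGFb1 DC 954, 955 or 956 ended the calls over both experiments for Fcgr1 (0.90 to 0.99) and Fcgr3 (0.46 to 0.55), at adjusted p = 0.07 to 0.09 by the exact permutation test.

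To compare levels between the genes, CPM were divided by the length of the merged exons. On this scale Fcer1g was the most abundant, at 302.5 ± 74.1 CPM per kb in AdCL and 410.5 ± 72.1 in AdTGFb1 libraries (SD, n = 6 each). Fcgr3 followed at 128 ± 44.4 and 277 ± 27.4, then Fcgr2b at 59.9 ± 18.5 and 91.6 ± 26.1, and Fcgrt at 44.6 ± 10.9 and 54.4 ± 13.5 CPM per kb. Fcgr1, at 13.0 ± 7.09 and 39.3 ± 12.0, and Fcgr4, at 11.4 ± 4.44 and 31.9 ± 20.6 CPM per kb, were lowest. With the experiments pooled in this way they did not differ from each other beyond their spread. In AdTGFb1 of experiment 1, however, Fcgr1 was at 29.1 ± 3.99 and Fcgr4 at 14.1 ± 5.73 CPM per kb. In AdTGFb1 of experiment 3 they were at 49.5 ± 5.80 and 49.7 ± 8.47 CPM per kb (SD, n = 3 each). The place of Fcgr2b depends on the transcript assumed: its merged exons span 3810 bases and its shortest transcript 1084, and with the latter its AdCL level was 210 CPM per kb, above that of Fcgr3.

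Across the 12 libraries, which share vector, experiment and depth differences, the log2 CPM of Fcgr1 went with that of Fcer1g (Pearson r = 0.93), Fcgr3 (0.89) and Fcgr4 (0.86). Fcgr2b went with Fcgr3 (0.80) and hardly with Fcgr4 (0.14). After the mean of each of the 4 groups was removed, Fcgr1 still went with Fcgr4 (0.69) and Fcer1g (0.68), whereas Fcgr2b ran against Fcgr4 (-0.81) and Fcgr1 (-0.55). AdTGFb1 DC 52, with the highest Fcgr2b (525 CPM) and the lowest Fcgr4 (9.81 CPM) of its group, and AdCL DC 943, with the highest Fcgr2b (343 CPM) and the lowest Fcgr4 (14.9 CPM) of its group, show this inverse order. These values describe 12 libraries and carry no test.

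Among 9178 other tested genes with at least 5 CPM on average, those whose pattern over the 12 libraries was most like that of Fcgr1 were Apoe (r = 0.98), a lipid carrier, Camk2d (0.97), a calcium-dependent kinase, and Ptpn6 (0.97), the phosphatase SHP-1. For Fcgr3 they were Man2b1 (0.99), a lysosomal mannosidase, Atp13a2 (0.98), a lysosomal ATPase, and Grn (0.97), progranulin. For Fcgr2b they were Naaa (0.95), a lysosomal amidase, Tmem154 (0.95) and Hipk2 (0.94), a nuclear kinase. For Fcgr4 they were Znfx1 (0.96), an RNA-binding antiviral helicase, Tgfbr2 (0.96), the type II TGF-β receptor, and Fyb (0.95), an adaptor. For Fcer1g they were Pla2g15 (0.96), a lysosomal phospholipase, Usp8 (0.95), a deubiquitinase, and Fblim1 (0.95). The best for Fcgrt were Cep68 (0.92), Adcy9 (0.92), an adenylyl cyclase, and Nckap1l (0.91), a subunit of the WAVE complex. Naaa and Tmem154 shared with Fcgr2b a rise in experiment 1 (log2 fold change 1.52 and 3.27, adjusted p = 1.33e-06 and 1.28e-05) and a value that did not pass in experiment 3 (0.04 and -0.36, adjusted p = 0.947 and 0.719).

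Genes of the pathway around the receptors were called in both directions, as were tested genes at large. Of 37 tested genes of activating signalling (38 listed), 4 rose and 7 fell over both experiments. Of all tested genes 6.78% were called higher and 10.4% lower. The median log2 fold change of the 37 was 0.05. Among those that fell were the kinases Syk, from 1309.7 ± 105 to 873 ± 111 CPM (-0.59 ± 0.10, adjusted p = 0.000628), and Fyn, from 439.8 ± 119 to 213 ± 33.1 CPM (-1.01 ± 0.12, adjusted p = 9.8e-06), and Pik3r1, a regulatory subunit of PI3K, from 915 ± 243 to 476 ± 35.6 CPM (-0.91 ± 0.14, adjusted p = 0.000149). For each of Syk, Fyn and Pik3r1 all 6 AdTGFb1 libraries lay below all 6 AdCL libraries, which 4.46% of tested genes showed. Pik3cd, the catalytic PI3K subunit of leukocytes, rose from 92.4 ± 28.4 to 154 ± 43.0 CPM (0.76 ± 0.12, adjusted p = 0.000234). Tyrobp, the related adaptor chain DAP12, was at 316 ± 63.9 and 299.6 ± 38.2 CPM and did not pass (-0.06 ± 0.10, adjusted p = 0.732; chosen after its values were seen).

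Of 19 tested genes of inhibitory signalling (20 listed), 6 rose and 2 fell, against 6.78% of all tested genes called higher and 10.4% called lower. The median of the 19 was 0.37. Lair1, an inhibitory collagen receptor, rose from 66.1 ± 24.7 to 169.6 ± 74.9 CPM (1.31 ± 0.15, adjusted p = 8.59e-06). The phosphatases Ptpn6 (199 ± 72.4 to 364 ± 93.9 CPM; 0.91 ± 0.11, adjusted p = 1.35e-05) and Inppl1, or SHIP2 (39.9 ± 8.37 to 79.7 ± 7.61 CPM; 1.01 ± 0.14, adjusted p = 8.8e-05), rose as well. Lilrb4a, another inhibitory receptor, fell from 1424 ± 206 to 775 ± 77.1 CPM (-0.87 ± 0.10, adjusted p = 7.86e-06) and was lower in 6 of 6 AdTGFb1 libraries. Inpp5d, which encodes the SHIP1 phosphatase recruited by Fcgr2b, was at 328 ± 52.1 and 409 ± 126 CPM. It did not pass over both experiments (0.28 ± 0.11, edgeR adjusted p = 0.0811). Within experiment 3 it passed (0.46 ± 0.13, edgeR adjusted p = 0.0363), and within experiment 1 it did not (0.10 ± 0.13, edgeR adjusted p = 0.633). Inpp5d was chosen after its values were seen.

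**Figure D4:**
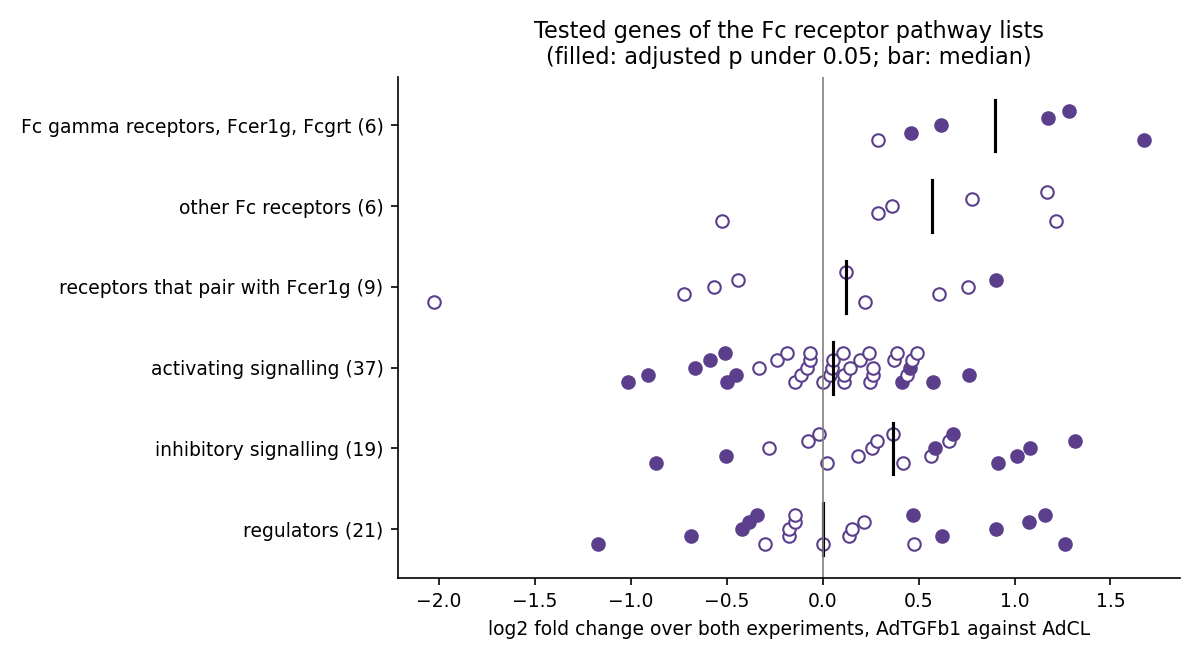
Log2 fold change over both experiments of the tested genes in each list; points are genes, filled where the adjusted p was under 0.05, black bars are list medians, and the number tested is in parentheses. The 6 Fc receptor genes all lie above 0 (median 0.90), whereas activating signalling (median 0.05) and the regulators (median 0.00) have called genes on both sides.

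Of 12 other Fc receptors listed, 6 were tested, with a median of 0.57. Over both experiments 0 were called by edgeR, 1 had an unadjusted p under 0.05 and 1 was called by DESeq2, in both cases Trim21, the cytosolic antibody receptor (9.26 ± 1.95 to 16.1 ± 5.26 CPM; 0.78 ± 0.27, edgeR adjusted p = 0.0574). Fcrls was at 82.6 ± 28.3 and 106 ± 41.2 CPM (0.36 ± 0.31, adjusted p = 0.481), and Fcrlb (1.17 ± 0.83, adjusted p = 0.386) and Fcrl1 (-0.52 ± 0.62, adjusted p = 0.622) stayed under 7 CPM on average. Of 15 receptors that pair with Fcer1g, 9 were tested. Pira6 rose (15.8 ± 7.14 to 28.7 ± 5.78 CPM, log2 fold change 0.91 ± 0.22, edgeR adjusted p = 0.00834) and 0 fell (median 0.12). Of all tested genes 6.78% were called higher and 10.4% lower. Pira6 has close relatives, among which reads may have been split. The C-type lectins Clec4n (0.76 ± 0.27, adjusted p = 0.0575), Clec4d (-0.57 ± 0.22, adjusted p = 0.0897) and Clec4e (-0.44 ± 0.20, adjusted p = 0.143) did not pass.

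Of 21 regulators known to act on Fc receptor genes or on the cytokine and TGF-β signals that reach them, 6 rose and 5 fell. Of all tested genes 6.78% were called higher and 10.4% lower. The median of the 21 was 0.00. Cebpa, a myeloid transcription factor, rose from 89.3 ± 22 to 217 ± 58.0 CPM (1.27 ± 0.12, adjusted p = 1.61e-06), and Irf8, an interferon regulatory factor, from 119 ± 24.5 to 267 ± 58.3 CPM (1.16 ± 0.12, adjusted p = 4.03e-06). Jak2, a kinase of cytokine receptors, fell from 1063 ± 128 to 474 ± 73.7 CPM (-1.17 ± 0.10, adjusted p = 1.04e-06). Spi1, which encodes PU.1, was at 307.4 ± 56.9 and 272 ± 30.3 CPM and did not pass (-0.17 ± 0.13, adjusted p = 0.391; chosen after its values were seen).

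Marker lists of other myeloid cells did not all move with the receptors. The monocyte and macrophage sum and the CD103 DC sum were higher with AdTGFb1 in both experiments. The alveolar macrophage sum was higher with AdTGFb1 in experiment 1 and lower in experiment 3. The neutrophil sum was lower with AdTGFb1 in experiment 3, and the vectors overlapped in experiment 1. The summed level of 13 monocyte and macrophage markers, a list that contains Fcgr1 itself, was 3988 to 4700 CPM in AdCL and 8868 to 11703 CPM in AdTGFb1 libraries of experiment 1, and 7477 to 9205 and 15345 to 19457 CPM in experiment 3. Over both experiments 11 of the 13 rose and 0 fell, against 6.78% of all tested genes called higher and 10.4% called lower. The median log2 fold change of the 13 was 1.04. Apoe had the highest level in this list, with group means from 1227 to 9818 CPM. The order of the 4 groups in this sum is that of Fcgr1 except that AdCL of experiment 3 and AdTGFb1 of experiment 1 overlap. The summed level of 10 alveolar macrophage markers was 92.3 to 204 CPM in AdCL and 1213 to 2461 CPM in AdTGFb1 libraries of experiment 1, but 257 to 696 CPM in AdCL and 108 to 151 CPM in AdTGFb1 libraries of experiment 3. Chil3, a member of this list, had group means of 58.0 CPM (AdCL) and 1560 CPM (AdTGFb1) in experiment 1, and of 252.5 and 47.0 CPM in experiment 3. Of the 10 markers, 4 were called lower for the difference of the vector effect (experiment 3 minus experiment 1), against 2.59% of all tested genes. Their list's median log2 fold change changed sign, from 1.41 in experiment 1 to -1.24 in experiment 3. Fcgr2b and Fcgr3 were called lower for this difference too, but Fcgr3 still rose in experiment 3 and Fcgr2b did not pass there. The 7 markers of CD103 DCs, which include Irf8, summed to 197 to 250.5 CPM in AdCL and 269 to 377 CPM in AdTGFb1 of experiment 1, and to 229 to 274 and 453 to 576 CPM in experiment 3, with no overlap between the vectors in either experiment. Irf8 alone had group means of 101 and 222 CPM in experiment 1 and 138 and 312 CPM in experiment 3, AdCL first. In experiment 1 the mean of Irf8 rose by more than the mean of the sum. Cadm1, another of the 7, went from 68.4 to 25.2 CPM in experiment 1 and from 60.7 to 112 CPM in experiment 3 (chosen after its values were seen). Over both experiments 3 of the 7 rose and 0 fell, in experiment 1 3 rose and 1 fell, and in experiment 3 1 rose and 0 fell. Of all tested genes 6.78%, 10.6% and 1.97% were called higher in these comparisons, and 10.4%, 14.1% and 4.46% lower. The part of these cell types in the receptor results was not tested. Neutrophils also carry Fc gamma receptors. Their markers summed to 19.0 to 28.5 CPM in AdCL and 7.57 to 24.7 CPM in AdTGFb1 libraries of experiment 1, and to 29.7 to 51.0 and 3.56 to 7.35 CPM in experiment 3, with Camp at 0 in all 12 libraries.

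Endothelial markers summed to 132 to 487 CPM in AdCL and 25.3 to 41.6 CPM in AdTGFb1 libraries of experiment 1, and to 35.2 to 70.7 and 71.1 to 129.5 CPM in experiment 3. With a term for 42 markers of neutrophils, lymphocytes and structural cells, Fcgr1 and Fcgr3 stayed called, 2 of the 6 genes, while Fcgr4 (1.43, adjusted p = 0.0602), Fcer1g (0.36, 0.35) and Fcgr2b (0.29, 0.728) did not pass, and the genes called over all tested fell to 326. In experiment 1 the mean score of these markers was 0.398 to 1.51 in AdCL and -1.12 to -0.407 in AdTGFb1 libraries. The term and the vector therefore cannot be told apart there. The SE of Fcgr4 was 0.39 with this term and 0.26 without it. With a term for sex, Fcgr1, Fcgr3 and Fcgr4 stayed called. In experiment 3, where all libraries were female, Fcgr1, Fcgr3 and Fcgr4 rose as well, with the values given above.

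In the annotation, Fcgr2b, Fcgr4, Fcgr3 and Fcer1g lie on chromosome 1, Fcgr1 on chromosome 3 and Fcgrt on chromosome 7. Among the nearest tested genes on either side, Rcn3, a calcium-binding protein beside Fcgrt, fell over both experiments (-1.85 ± 0.52, adjusted p = 0.0189). On chromosome 1, Fcrla (1.22 ± 1.51, adjusted p = 0.646), Cfap126 (0.42 ± 1.09, 0.84) and Tomm40l (0.47 ± 0.32, 0.358) did not pass. Between Cfap126 and Fcgr3 lie 21 other annotated genes. The nearest tested genes to Fcgr1 were Bola1 (0.17 ± 0.67, 0.896) and Txnip (0.47 ± 0.16, 0.0528), with 11 and 48 annotated genes in between. They did not pass either.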

How the data were processed

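Per the labels' protocols, polyadenylated RNA was selected and strand-specific libraries were amplified in 10 cycles. The tools listed in the submitters' processing notes include STAR 2.5.0c, HTSeq and DESeq2 with the build mm9, and, for reads, Trim Galore 0.4.1, FastQC 0.11.4, bcl2fastq and cutadapt 1.9.1. For the counting, the annotation and strand setting are not stated in any source used here. The authors deposited raw read counts per gene symbol, 1 column per library, from 10099912 to 15594546 counts in all.

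Counts were tested with edgeR 4.0.16 in R 4.3.3 (TMM, filterByExpr on the 4 groups, quasi-likelihood F test) on all 13221 genes left, with Benjamini-Hochberg adjustment over them and a threshold of 0.05. The vector was tested over both experiments with the experiment as a term. A model of 4 groups gave the effect of the vector in either experiment, the difference of these effects (experiment 3 minus experiment 1) and the experiments against each other for each vector. SE is the log2 fold change over the square root of F, and 95% intervals are 1.96 SE. Depth sets the precision: without molecular identifiers, reads after PCR are not each a molecule of their own. The scripts were tested on simulated counts. Alternatives were DESeq2 1.42.0, RLE scaling, no filter, other terms and leaving out each library.

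The 6 genes, the lists and the tests were chosen with earlier results of these data known. Genes are named by a rule: the 6 genes and B2m; up to 4 per list, by smallest adjusted p, with at least 1 CPM; for each of the 6, the 3 genes with the highest correlation of log2 CPM (prior count 2); and the nearest tested gene on either side. Some genes that the rule names are not reported here. Zbtb46, Flt3, Sirpa, Cd74, H2-Aa, H2-Ab1, H2-Eb1, Chil3, Kit, Gata2 and the genes so marked in the text were chosen after their values were seen. Promoters are from RefSeq (GRCm38.p6); transcript lengths, shared 50-base stretches and gene order are from the GRCm38 annotation, another build than the counts.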

Additional observations from a re-analysis of the deposited data

Results flagged for a closer look

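For 8 of the genes described above, beside the markers Kit and Gata2, the vector's effect differed between experiment 3 and experiment 1 by a test of the difference itself (edgeR quasi-likelihood test, adjusted over 13221 genes). Of the Fc receptor genes these were Fcgr2b (-1.27 on the log2 scale, experiment 3 minus experiment 1, adjusted p = 0.00313) and Fcgr3 (-0.87, adjusted p = 0.0237). Of the genes with a similar pattern they were Tmem154 (-3.64, adjusted p = 0.000788), Naaa (-1.48, adjusted p = 0.000672), Atp13a2 (-1.08, adjusted p = 0.0266) and Grn (-0.96, adjusted p = 0.00787). These 4 were picked for their likeness to Fcgr2b or Fcgr3 over the same libraries, so they are no independent evidence. Clec4n, a receptor that pairs with Fcer1g, differed by -1.51 (adjusted p = 0.0123): its log2 fold change was 1.51 in experiment 1 and 0.00 in experiment 3. Pik3r1 differed by 0.70 (adjusted p = 0.0429), since it fell by 1.26 on the log2 scale in experiment 1 and by 0.56 in experiment 3.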

How the results depend on the processing

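Over both experiments, Fcgr1 (1.33 to 1.68 on the log2 scale in 6 other settings, 1.60 to 1.86 leaving out each library) and Fcgr3 (0.87 to 1.18 and 1.08 to 1.28) kept their calls in every setting run. Of the 6 genes, 3 were called with no term for the experiment, 3 with sex as a term and 2 with other-cell markers as a term, where 1501 (sex) and 326 (markers) genes were called in all. Fcgr2b gave 0.61, 0.34 and 0.29 with these terms in the same order and 0.475 to 0.759 leaving out each library; Fcer1g gave 0.44, 0.36 and 0.36, and Fcgr4 1.43 with the marker term. The cause was not tested. For the difference between experiments 1286 genes were called by DESeq2 and 1222 with no filter, against 796, and 530 to 956 leaving out each library, with 1 to 2 of the 6 genes; Fcgrt changed sign there with RLE scaling (0.0177), DESeq2 (0.0177) and left-out libraries (-0.224 to 0.198). Leaving out each library gave 498 to 871 genes for the vector in experiment 3, 660 to 1247 for experiment 3 against 1 in AdCL, and 570 to 1147 in AdTGFb1 with 1 to 3 of the 6 genes. Single-library ranges crossed 0 for Fcgr2b in experiment 3 (-0.128 to 0.158), Fcgr3 between experiments in AdTGFb1 (-0.144 to 0.0558) and the Fcer1g to Fcgr2b ratio (-0.288 to 0.0153). The ratio to Fcgr2b spanned 0.896 to 1.33 for Fcgr1 and 0.459 to 0.671 for Fcgr3; it changed sign for Fcgr4 within experiment 1 (-0.48) and for Fcer1g within experiment 3 (0.33). No paired analysis was possible because no DC number occurs in more than 1 group. Fcgr4 had the fewest counts of the 6 genes (73 in its lowest library) and the largest SE over both experiments.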
